A study of Mus musculus with 4 samples.

Results

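The nucleosome remodelling and deacetylase (NuRD) complex joins a Chd ATPase to histone deacetylases, and the genes described here are those of its deacetylase and scaffold subunits, Hdac1, Hdac2, Mbd2, Mbd3, Mta1, Mta2, Mta3, Gatad2a and Gatad2b, with the NuRD-associated reader gene Zmynd8. The members are every probe set that the array annotation gives to 1 of these 10 symbols alone, which makes 28 of 34945 probe sets with a single symbol and 10 of 18193 genes. They were compared between mouse J1 embryonic stem cells of the inducible RNAi line Chd4i-1 that had received 5 ng/ml doxycycline for 3 days to knock down Chd4 (n = 2 arrays) and cells of the same line without doxycycline (n = 2 control arrays). All cells carried the RNAi construct, and they grew on gelatin with 15% serum and with leukaemia inhibitory factor, which holds them undifferentiated. A single RNAi line was used, and no doxycycline-treated cells without the construct were analysed here, so the effects of doxycycline, of RNAi and of Chd4 loss cannot be told apart. Arrays of a group are described by the submitters as biological duplicates.

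In NuRD, the deacetylases Hdac1 and Hdac2 remove acetyl groups from histone tails, and the Mta proteins form the dimeric scaffold that holds them. Mbd2 and Mbd3, which replace each other in the complex, bridge this deacetylase core through Gatad2a or Gatad2b to the Chd remodeller. Zmynd8 reads acetylated histones and recruits NuRD to chromatin. In embryonic stem cells NuRD is best known from the loss of Mbd3, which leaves pluripotency genes insufficiently silenced when the cells should differentiate.

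Values are MAS5 signals, the summary of a probe set's brightness on a linear scale, and log2 differences are Chd4 knockdown minus control with the standard error (SE) of a limma fit over 27022 probe sets. A call means a p below 0.05 in that fit after Benjamini-Hochberg adjustment over all of them. The 4 arrays had median signals of 73.4 to 79.4, and Pearson's r over the tested probe sets was 0.982 between the knockdown arrays, 0.984 between the controls and 0.968 to 0.969 across the groups. The targeted gene was lower in both knockdown arrays at its 3 probe sets: Chd4 signals at 1438476_a_at were 445 and 394 in the knockdown arrays, against 918 and 814 in the controls, or 48.5% of control (log2 -1.05 ± 0.12, adjusted p = 0.000244). At 1436343_at they were 551 and 420.2, against 894 and 822 in the controls (log2 -0.83 ± 0.14, adjusted p = 0.00232), and at 1451295_a_at 1155 and 1479.9, against 2215 and 1826 in the controls (log2 -0.62 ± 0.12, adjusted p = 0.00638). All 10 embryonic stem cell markers checked, Pou5f1, Sox2 and Nanog among them, had signals of 2769 or more on every array, and of these Dppa5a and Utf1 rose and Esrrb and Klf4 fell. Above the median signal of 71.8 lay 1 of 7 fibroblast or feeder markers, 1 of 7 primitive endoderm, 3 of 5 trophectoderm and 4 of 6 neural markers, and among them Thy1, Krt7 and Tubb3 rose and no other tested marker of these lists passed in limma. Sox1, a neural marker too dim on average to be tested, had 21.3 and 5.40 in the knockdown arrays, against 129 and 183 in the controls. Other markers without a call differed without overlap in both directions. Pax6 was lower (log2 -0.42, adjusted p = 0.424), and the untested trophectoderm marker Elf5 had 5.31 and 11.7, against 26.6 and 60.8 in the controls. The untested Sox17, Postn and Lum were lower too. Map2 (log2 0.35, adjusted p = 0.176), Sox7 (0.96, adjusted p = 0.200) and Dab2 (0.31, adjusted p = 0.424) were higher. So was the untested Cdx2, with 66.0 and 38.9, against 29.0 and 22.1 in the controls. Summed signals of the fibroblast list were 771 and 666 in the knockdown arrays, against 322 and 400.0 in the controls, of which Thy1 gave 601 and 547, against 176 and 199.5 in the controls (log2 1.61 ± 0.15, adjusted p = 7.00e-05). In the knockdown arrays, against the controls, the sums were 409 and 355 against 354 and 329 for primitive endoderm, 559 and 486 against 350.2 and 451 for trophectoderm, and 2058 and 2105 against 1939 and 1859 for neural markers. Of these, Dab2 gave 150 and 175 against 138 and 123 in primitive endoderm. Krt7 gave 250 and 217 against 69.4 and 72.7 in trophectoderm, and Tubb3 1464 and 1539 against 1276 and 1161 in neural markers. A bright gene can thus set a sum, which does not describe its whole list. The part of these markers in the results below was not tested.

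RefSeq promoter windows on GRCm38.p6 were used for 7 of the 10 genes, and none was used for Hdac1, Mbd2 and Mta3. The counts of member windows below therefore do not cover Hdac1, Mbd2 and Mta3, and their absence says nothing about their listed starts. The 250 bases before the most upstream listed start are shown for 3 genes with a probe set that rose (Mbd3, Gatad2a and Gatad2b) and for Hdac2, which fell, chosen for their calls and, over Zmynd8, for their CG-rich windows, so that their CG content is no finding. Capitals mark the motifs searched, on either strand, so that a motif can also stand as its reverse complement: GGGCGG (the GC box of Sp and Klf factors), CCAAT (the box bound by NF-Y), CACGTG (the E box) and CCGGAAG (an ETS core). No marked motif overlaps another in these windows.
Mbd3 (chr10:80399532-80399781, minus strand): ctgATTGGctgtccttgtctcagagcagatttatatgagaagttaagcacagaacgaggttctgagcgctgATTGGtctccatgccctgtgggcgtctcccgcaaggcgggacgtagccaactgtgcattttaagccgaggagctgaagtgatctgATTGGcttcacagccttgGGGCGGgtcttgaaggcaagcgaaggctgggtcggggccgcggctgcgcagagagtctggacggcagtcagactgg
Gatad2a (chr8:69996385-69996634, minus strand): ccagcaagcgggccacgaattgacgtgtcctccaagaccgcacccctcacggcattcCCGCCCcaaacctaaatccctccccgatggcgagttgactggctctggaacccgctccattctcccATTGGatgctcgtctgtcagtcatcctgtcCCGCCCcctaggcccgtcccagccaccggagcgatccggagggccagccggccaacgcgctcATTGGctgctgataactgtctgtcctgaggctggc
Gatad2b (chr3:90292931-90293180, plus strand): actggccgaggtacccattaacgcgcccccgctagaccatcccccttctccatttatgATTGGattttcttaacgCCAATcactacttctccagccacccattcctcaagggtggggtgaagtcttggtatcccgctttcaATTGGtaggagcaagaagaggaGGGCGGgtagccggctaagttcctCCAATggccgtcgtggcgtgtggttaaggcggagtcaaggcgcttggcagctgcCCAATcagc
Hdac2 (chr10:36974294-36974543, plus strand): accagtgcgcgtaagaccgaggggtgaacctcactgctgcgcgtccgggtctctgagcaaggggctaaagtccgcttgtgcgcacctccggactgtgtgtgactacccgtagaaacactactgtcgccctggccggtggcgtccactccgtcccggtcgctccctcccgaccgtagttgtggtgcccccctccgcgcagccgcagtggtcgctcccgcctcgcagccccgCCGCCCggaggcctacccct
CCAAT was found in 5 of the 13 member windows, where 33.8% of all 32851 RefSeq windows of this length held it. It stood 3 times in the Mbd3 window, 2 times in that of Gatad2a and 5 times in that of Gatad2b, and 1 time each at the second listed start of Gatad2b and the fourth of Zmynd8. The windows of Hdac2, Mta1, Mta2, the second start of Gatad2a and the other Zmynd8 starts held none. GGGCGG was found in 8 of the 13, against 32.7% of all windows, in each window of Hdac2, Mbd3, Mta1, Mta2, Gatad2a and Gatad2b and in none of Zmynd8. CG dinucleotides numbered 39 in the Mta1 window, 27 in Hdac2, 24 in Mta2, 18 and 20 in Gatad2a, 14 in Mbd3, 13 and 14 in Gatad2b and 4 to 11 in the 5 of Zmynd8, against a median of 6 over all windows. These matches describe the letters only.

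Of the 28 member probe sets 27 passed the filter on dim signals, and the 28th, Mta1 1440113_at, had signals of 4.59 and 4.74 in the knockdown arrays and 11.9 and 5.15 in the controls. In knockdown arrays 7 member probe sets were higher and 3 lower, while 17 did not pass. The background was 7.46% of all tested probe sets higher and 6.77% lower, or 14.2% in either direction. In bulk RNA, fewer cells of a type and less RNA per cell cannot be told apart. Groups did not overlap at 17 of the 27, where 55.9% of all tested probe sets had groups that did not overlap. The median log2 difference was 0.16 over the tested members and -0.01 over all tested probe sets. Calls lay among the bright members, with 8 among the 14 brightest (signals of 435 or more) and 2 among the 13 dimmer ones, and over all probe sets 23.1% at or above that signal and 8.15% below it were called.

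These counts depended on the variance model, the filter, the centring of the arrays and the null tested, and on keeping all 4 arrays. With all 4 arrays, 4 of 27 members were higher under median centring, 3 of 28 without a filter and 2 of 27 in a test against a 1.2-fold change. In the same order 4, 3 and 2 were lower, and 11.5%, 6.29% and 3.15% of all tested probe sets were called. Without an intensity trend limma called 0 of the 27, and 0 of all 27022 probe sets, with 5 members higher and 4 lower at an unadjusted p under 0.05. Leaving out any array leaves a single array in a group. Fewer members were then called higher, and so were fewer of all tested probe sets.

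**Figure D1:**
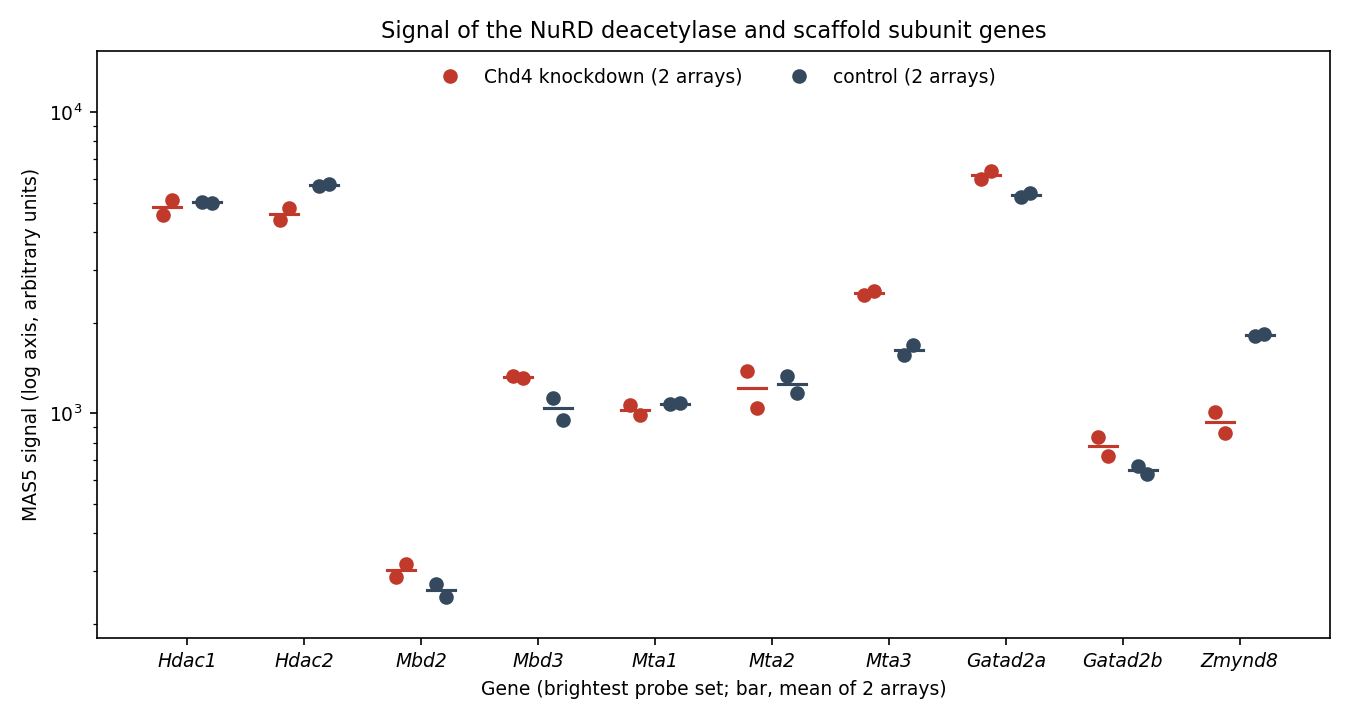
MAS5 signal (log axis) of the brightest probe set of each of the 10 genes in the 2 Chd4 knockdown arrays (red) and the 2 control arrays (dark), with bars at the group means. Of the genes with a call, Mta3, Gatad2a and Mbd3 lie higher and Hdac2 and Zmynd8 lower in both knockdown arrays than in both controls; heights of different genes are not comparable, since each probe set has its own brightness.

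Of the deacetylase genes, Hdac2, a class I histone deacetylase, fell at both of its bright probe sets, to 66.4% and 80.1% of control. Its partner Hdac1, the deacetylase with which it shares NuRD, had no call. At probe set 1449080_at the Hdac2 signals were 2921 and 3010.3 in the knockdown arrays, against 4590.2 and 4340.3 in the controls. Both knockdown arrays lay below both controls (log2 -0.59 ± 0.063, adjusted p = 0.000151). At 1445684_s_at, whose suffix marks probes that can match transcripts of more than 1 gene, they were 4402 and 4813, against 5698 and 5793 in the controls (log2 -0.32 ± 0.062, adjusted p = 0.00605). Here too the groups did not overlap. The same suffix, with the same limit, stands on 1451352_s_at of Mta3, on 1451197_s_at of Gatad2a and on the probe sets of Ing1, Brms1l and Kdm1a below. The third Hdac2 probe set, 1439704_at, had signals of 34.2 and 64.6 in the knockdown arrays and 52.5 and 45.2 in the controls, under the array median in both groups, so that no fold is given. The call at 1449080_at held in 12 of 13 alternatives and ended only without the intensity trend (adjusted p = 0.104). That at 1445684_s_at held in 11, and ended there (adjusted p = 0.206) and in a test against a 1.2-fold change (adjusted p = 0.915).

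Hdac1 had signals of 4571 and 5109 in the knockdown arrays, against 5026 and 5015 in the controls. The knockdown arrays lay on either side of the controls (log2 -0.055 ± 0.066, 95% confidence interval -0.20 to 0.089, adjusted p = 0.645). The log2 change of Hdac2 minus that of Hdac1, at the brightest probe set of each, was -0.26 ± 0.021 (SE over arrays), and the ratio was lower in 2 of 2 knockdown arrays than in both controls. An exact two-sided permutation test of 2 against 2 arrays cannot go below p = 0.333, the value found here (0.5 after adjustment over 6 pairs), so the difference between the paralogues did not pass.

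The Mta scaffold genes separated into Mta3, which rose, and Mta1 and Mta2, which had no call. Mta3 encodes an Mta family member known from human breast cancer cells, where it takes part in repression of Snail. At 1451352_s_at its signals were 2471 and 2554 in the knockdown arrays, against 1567 and 1693 in the controls. Both knockdown arrays exceeded both controls, a 1.54-fold rise (log2 0.63 ± 0.075, adjusted p = 0.000315). At 1421402_at they were 563 and 634, against 302 and 290.3 in the controls, a 2.02-fold rise (log2 1.01 ± 0.13, adjusted p = 0.000579). These calls held in 12 of 13 alternatives each and ended without the intensity trend (adjusted p = 0.103 and 0.0773). The third Mta3 probe set, 1443350_at, had 95.9 and 78.7 in the knockdown arrays and 88.5 and 98.5 in the controls, with overlapping groups near the array median (log2 -0.10 ± 0.30, adjusted p = 0.867).

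Mta1, the founding member named after metastatic carcinoma cells, had signals of 1065 and 989 in the knockdown arrays, against 1073 and 1084 in the controls. The groups did not overlap but the difference was small (log2 -0.072 ± 0.090, 95% confidence interval -0.27 to 0.13, adjusted p = 0.664). Mta2, another family member that binds the deacetylases, had 1380 and 1045 in the knockdown arrays and 1331 and 1167 in the controls, with the knockdown arrays on both sides of the controls (log2 -0.053 ± 0.12, 95% confidence interval -0.33 to 0.22, adjusted p = 0.833). The change of Mta3 minus that of Mta1 was 0.70 ± 0.092, and Mta3 minus Mta2 was 0.68 ± 0.27, on the log2 scale with the SE over arrays. In both pairs the ratio was higher in 2 of 2 knockdown arrays than in the controls, with p = 0.333 in the exact permutation test, the smallest it allows, and 0.5 after adjustment. Mta2 minus Mta1 was 0.019 ± 0.18 (exact permutation p = 1).

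Of the methyl-CpG-binding domain genes, Mbd3 was 1.28-fold higher and Mbd2 had no call. Mbd3, whose protein has lost strong binding to methylated DNA, had signals of 1332 and 1314 in the knockdown arrays, against 1128 and 949.8 in the controls. The groups did not overlap, and the controls were farther from each other than the knockdown arrays (log2 0.35 ± 0.099, adjusted p = 0.0356). This call held in 6 of 13 alternatives. It was lost when control replicate 2 was dropped (log2 0.23, adjusted p = 0.251), and also when knockdown replicate 1 (0.34, adjusted p = 0.0804) or knockdown replicate 2 (0.36, adjusted p = 0.0628) was.

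Mbd2, which binds methylated CpG, had 287 and 317 in the knockdown arrays, against 273 and 247 in the controls at 1417165_at. Both knockdown arrays lay above the controls, within the error of the fit (log2 0.22 ± 0.16, 95% confidence interval -0.14 to 0.57, adjusted p = 0.422). At 1425803_a_at it had 170.5 and 227 in the knockdown arrays, against 182 and 207 in the controls, with overlapping groups (log2 0.020 ± 0.21, adjusted p = 0.966). The change of Mbd3 minus that of Mbd2 was 0.13 ± 0.096 on the log2 scale (exact permutation p = 0.333, 0.5 after adjustment).

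The Gatad2 genes, whose proteins link the Mbd subunit to the remodeller, rose at 4 of their 10 probe sets, 3 of Gatad2a and 1 of Gatad2b. Gatad2a had 5 probe sets, all with a log2 difference above 0 and none with overlapping groups, and 3 of them rose by 1.17-fold to 1.41-fold. Over all tested probe sets 27.5% had groups that did not overlap and were higher in knockdown, and 48.6% had a difference above 0. The brightest, 1423992_at, had 6006 and 6399 in the knockdown arrays, against 5228 and 5383 in the controls, a 1.17-fold rise (log2 0.22 ± 0.058, adjusted p = 0.0253). At 1451197_s_at the signals were 4157 and 4161 in the knockdown arrays, against 3242 and 3464 in the controls, a 1.24-fold rise (log2 0.31 ± 0.063, adjusted p = 0.00762). At 1455505_at they were 439 and 471, against 339 and 305 in the controls, a 1.41-fold rise (log2 0.50 ± 0.14, adjusted p = 0.0342). At each of these the lower knockdown array exceeded the higher control. The dimmer 1445239_at had 432 and 328 in the knockdown arrays, against 296 and 277 in the controls (log2 0.39 ± 0.17, adjusted p = 0.148). At 1451198_at the signals were 207 and 166, against 110.0 and 144 in the controls (log2 0.56 ± 0.24, adjusted p = 0.153).

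The Gatad2a calls at 1423992_at, 1451197_s_at and 1455505_at held in 6, 10 and 5 of 13 alternatives. With all 4 arrays kept, limma lost those at 1423992_at and 1455505_at under median centring (adjusted p = 0.128 and 0.0536). It also lost both without a filter (adjusted p = 0.0560 and 0.0531). The call at 1423992_at was lost when control replicate 1 (log2 0.20, adjusted p = 0.125), control replicate 2 (0.25, adjusted p = 0.0621) or knockdown replicate 2 (0.18, adjusted p = 0.111) was dropped. At 1455505_at it ended without any 1 of the 4 arrays, at log2 0.42 to 0.58 and adjusted p values of 0.0508 to 0.163. Among the arrays left out, only control replicate 1 ended the call at 1451197_s_at (log2 0.26). At 1445239_at a call appeared without knockdown replicate 2 (0.59, adjusted p = 0.0449).

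Gatad2b had 1 call among its 5 probe sets. At 1437507_at it had 665 and 549 in the knockdown arrays, against 393 and 458 in the controls, a 1.42-fold rise (log2 0.51 ± 0.14, adjusted p = 0.0313). The groups did not overlap. Dropping control replicate 1 (0.40, adjusted p = 0.158) or knockdown replicate 1 (0.37, adjusted p = 0.160) ended this call. The brightest probe set, 1437474_at, had 835 and 724 in the knockdown arrays, against 669 and 629 in the controls (log2 0.26 ± 0.11, adjusted p = 0.153). At 1425075_at the signals were 483 and 447, against 451 and 367 in the controls, with overlapping groups (log2 0.19 ± 0.14, adjusted p = 0.421). The dim 1447026_at had 91.8 and 133 in the knockdown arrays and 130.0 and 134 in the controls (log2 -0.25 ± 0.27, adjusted p = 0.603). At 1432979_at, under the array median in both groups, they were 47.3 and 54.5 against 98.9 and 44.5 in the controls (adjusted p = 0.646). At the brightest probe sets the change of Gatad2a minus that of Gatad2b was -0.035 ± 0.16 on the log2 scale (exact permutation p = 1). With all probe sets of each gene averaged it was 0.33 (exact permutation p = 0.333), so its sign depended on that choice. In that form Gatad2b had a log2 difference of 0.065 (adjusted p = 0.824).

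Zmynd8, the bromodomain and MYND-type zinc finger reader, showed the largest fall among the tested member probe sets and the widest disagreement between probe sets of a gene. At 1426614_at it had 1008 and 865 in the knockdown arrays, against 1803 and 1835 in the controls, or 51.3% of control (log2 -0.96 ± 0.094, adjusted p = 8.23e-05). Both knockdown arrays lay far below both controls, and the call held in 12 of 13 alternatives, ending without the intensity trend (adjusted p = 0.0873). At the dimmer 1429415_at the signals were 191 and 143, against 271 and 246 in the controls (log2 -0.64 ± 0.20, adjusted p = 0.0590). The groups did not overlap there either, and a call appeared without knockdown replicate 1 (-0.85, adjusted p = 0.0215).

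The other Zmynd8 probe sets had no call and differences above 0. The second brightest, 1456143_at, had 821 and 900.3 in the knockdown arrays, against 796 and 773 in the controls, with both knockdown arrays above the controls (log2 0.13 ± 0.10, 95% confidence interval -0.088 to 0.35, adjusted p = 0.437). At 1445827_at the signals were 131 and 111, against 100.3 and 115 in the controls (log2 0.16 ± 0.27, adjusted p = 0.745). At 1458617_at they were 79.4 and 65.4, against 67.2 and 59.5 in the controls, around the array median (log2 0.19 ± 0.36, adjusted p = 0.789). The change at 1426614_at minus that at 1456143_at was -1.09 ± 0.18 on the log2 scale (SE over arrays). RefSeq lists 5 starts for Zmynd8, and which transcripts each probe set reads was not determined here.

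For the other genes with several tested probe sets, the difference between the changes at the brightest and the next brightest was smaller. It was 0.27 ± 0.068 for Hdac2, -0.39 ± 0.10 for Mta3, -0.25 ± 0.16 for Gatad2b, 0.20 ± 0.21 for Mbd2 and -0.087 ± 0.052 for Gatad2a. In Hdac2, Mta3, Gatad2a and Gatad2b both probe sets moved the same way, with the larger change at the dimmer of the pair. The brightest of Gatad2b had no call. In Mbd2, without a call at either, the larger difference was at the brighter.

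**Figure D2:**
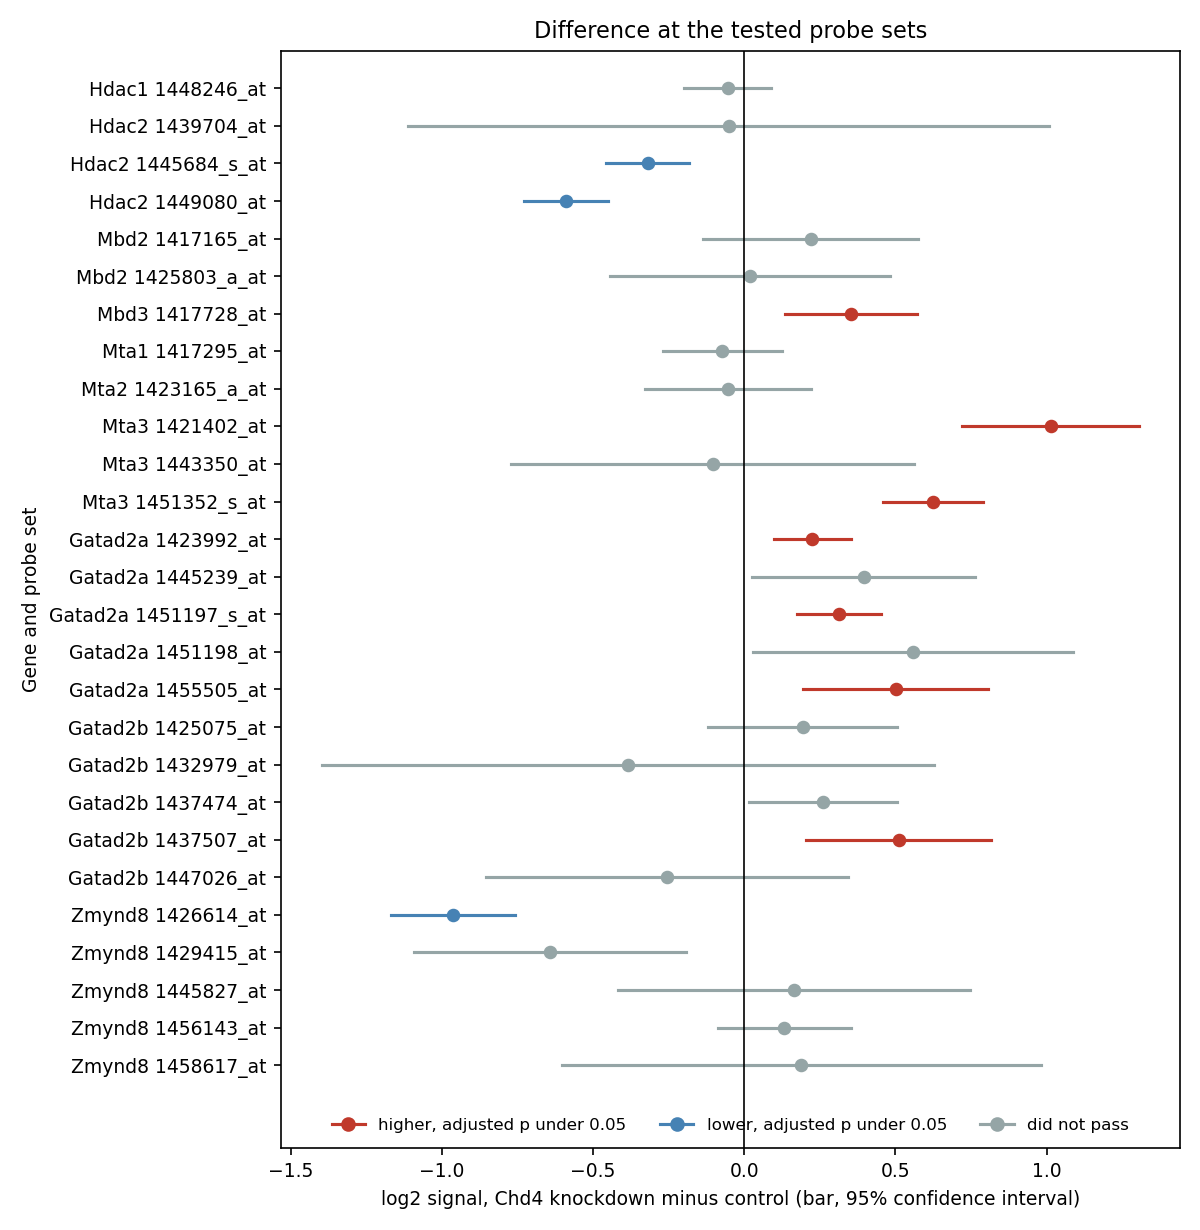
log2 signal in Chd4 knockdown minus control at the 27 tested member probe sets, with 95% confidence intervals from the limma fit; red is higher, blue lower and grey did not pass. All 5 Gatad2a points lie right of 0, while Zmynd8 has points at -0.96 and -0.64 and the other Zmynd8 points at 0.13 to 0.19.

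**Figure D3:**
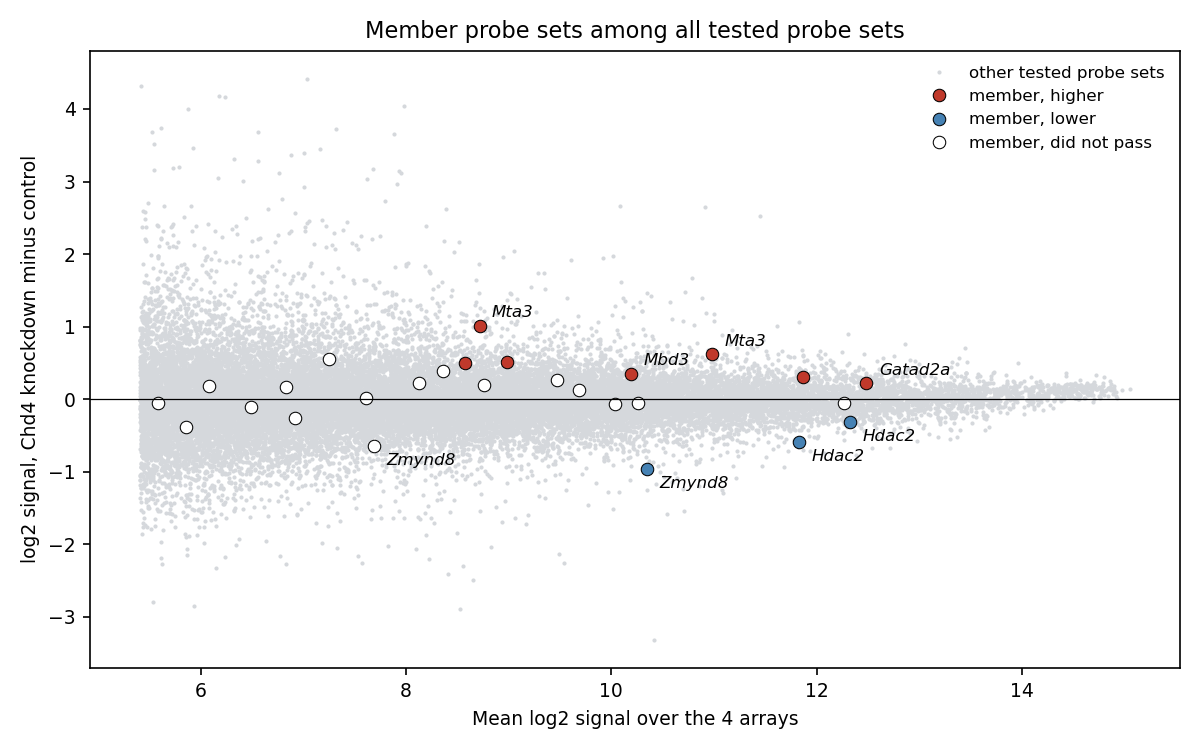
log2 difference (Chd4 knockdown minus control) against the mean log2 signal over the 4 arrays for all 27022 tested probe sets (grey) and the 27 tested members (large points; red higher, blue lower, white did not pass). The called members lie at signals of 382 to 5735, where the grey cloud is narrower than at the dim end, and their differences run from -0.96 to 1.01.

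Taken gene by gene at the brightest probe set, 3 members rose (Mta3, Mbd3 and Gatad2a), 2 fell (Hdac2 and Zmynd8) and 5 did not pass. Over all 12615 genes tested in this way 10.3% were higher and 7.79% lower. The medians of the log2 differences were 0.083 for the members and 0.014 for all these genes. With the probe sets of a gene averaged, limma called 2 member genes higher and 0 lower, with 3 and 1 at an unadjusted p under 0.05. In that form Hdac2 had a log2 difference of -0.32 (adjusted p = 0.142) and Zmynd8 of -0.22 (adjusted p = 0.356).

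The other subunits of NuRD gave 2 higher and 1 lower among 6 genes. Chd3 and Chd5, the remodellers that can take the place of Chd4, had 578 and 473, and 386 and 337, in the knockdown arrays, against 227 and 188, and 145 and 190 in the controls (log2 1.34 ± 0.17 and 1.12 ± 0.19, adjusted p = 0.000389 and 0.00286). The gene lower was Chd4 itself. The histone-binding subunits Rbbp4 and Rbbp7 had log2 differences of 0.044 and 0.078 (adjusted p = 0.598 and 0.339), and the small subunit gene Cdk2ap1 had 0.18 (adjusted p = 0.0610). The values of Rbbp4, Rbbp7 and Cdk2ap1, and that of Mier2 below, come from probe sets with the suffix _x_at. Whether their probes also match transcripts of other genes was not checked here, so these values may not describe the named genes alone.

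Among 15 genes of NuRD recruiters and partners 1 was higher and 1 lower, with a median log2 difference of -0.046. Sall1 and Sall4 encode zinc finger factors that bind NuRD through an N-terminal motif. Sall1 fell to a mean of 1037 in the knockdown arrays, against 2284 in the controls (log2 -1.14 ± 0.078, adjusted p = 6.43e-06). Sall4 rose to a mean of 7541, against 6279 in the controls (log2 0.26 ± 0.052, adjusted p = 0.00663). Next by p were Pwwp2b, a chromatin reader (0.58, adjusted p = 0.0521), and Zfpm1, the Gata cofactor (0.67, adjusted p = 0.150).

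Hdac1 and Hdac2 also serve the Sin3, CoREST and MiDAC complexes and bind Mier proteins. Of 13 Sin3 genes 3 were higher and 1 lower (median log2 0.045). Ing1, a reader of methylated histone H3, fell (log2 -0.59 ± 0.067, adjusted p = 0.00022), and the Sin3 subunit gene Brms1l rose (0.49 ± 0.098, adjusted p = 0.00662). The calls of Sap30l (0.34, adjusted p = 0.0288) and Arid4b (0.30, adjusted p = 0.0491) held in 8 and 4 of 13 alternatives, and that of Arid4b ended with a replicate block (adjusted p = 0.0511). Both were lost when control replicate 1 was dropped (0.28 and 0.20, adjusted p = 0.153 and 0.305) or knockdown replicate 2 was (0.27 and 0.31, adjusted p = 0.129 and 0.0947), and that of Arid4b also when knockdown replicate 1 was (0.30, adjusted p = 0.107).

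Of 9 CoREST genes 2 were higher and 1 lower (median log2 0.060). The demethylase gene Kdm1a rose (log2 0.26 ± 0.052, adjusted p = 0.00716), as did its corepressor partner Rcor2 (0.55 ± 0.11, adjusted p = 0.00647). Gse1 was lower (-0.63, adjusted p = 0.0206), a call lost when control replicate 1 (-0.45, adjusted p = 0.164) or knockdown replicate 1 (-0.50, adjusted p = 0.0690) was dropped, and Phf21a had -0.36 (adjusted p = 0.0589, and 0.0426 with a replicate block). Of 5 MiDAC and Mier genes 0 were higher and 1 lower in limma (median log2 -0.15), and the call of Mier1 (-0.31, adjusted p = 0.0407) ended without each of the 4 arrays in turn, at -0.35 to -0.26 and adjusted p values of 0.0716 to 0.211. Mier3 (-0.31, adjusted p = 0.115), Mideas (-0.15, adjusted p = 0.360) and Mier2 (-0.03, adjusted p = 0.909) followed. Across the 5 lists 8 of 48 genes were higher and 5 lower. Over all 12615 genes read at the brightest probe set, 10.3% were higher and 7.79% lower. Of all probe sets with signals of 435 or more, 23.1% were called in either direction.

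**Figure D4:**
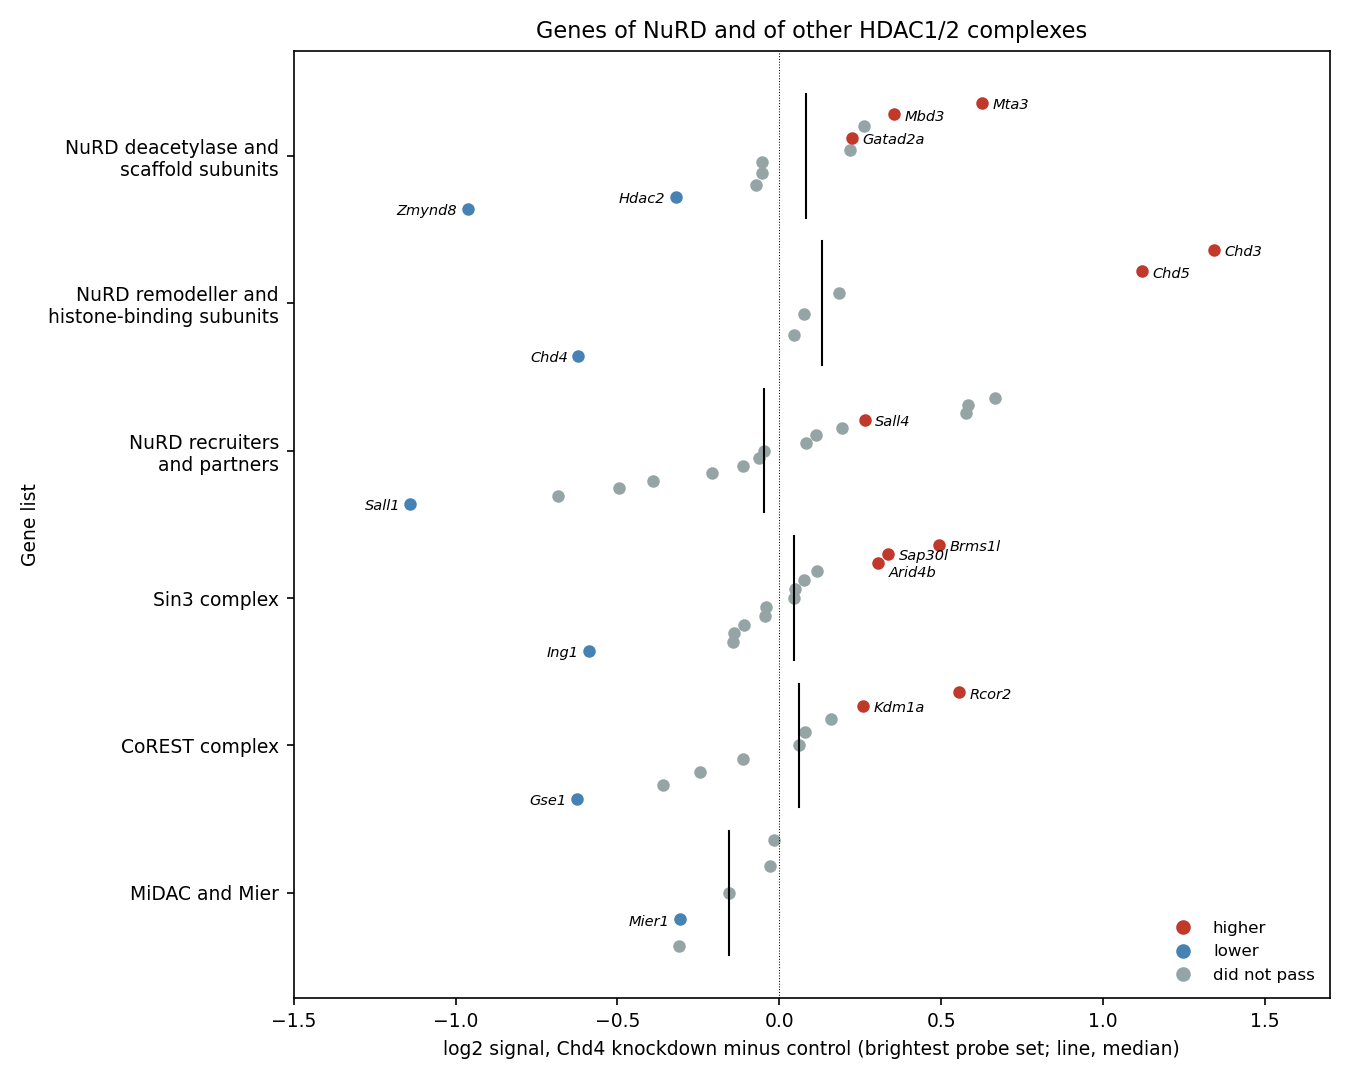
log2 signal in Chd4 knockdown minus control at the brightest probe set of each tested gene, by list, with a line at the list's median; red is higher, blue lower and grey did not pass. The member genes run from -0.96 (Zmynd8) to 0.63 (Mta3), and the list medians lie between -0.15 and 0.13.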

How the data were processed

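Biotin-labelled cRNA from 6 ug of total RNA per sample was hybridised to Affymetrix arrays, as the labels' protocols state. Each deposited value is an intensity (linear scale), the signal of 1 probe set on 1 array; the submitters' processing notes name MAS5 for it, with version and scaling target not given in the sources used here. Trimmed means of 496.5 to 497.2 showed 1 scale across arrays. Detection calls were not used here, so dim signals are noisy. The number of arrays limits the precision.

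Groups came from the sample titles and genes from the platform annotation, and all 28 member symbols matched RefSeq through the Entrez ID. The members and lists were chosen with earlier results of these data known. Of 45037 non-control probe sets, the 27022 in the top 60% by mean log2 signal (42.4 or more) were tested two-sided on log2 signal, without a pseudocount, in limma 3.58.1 (R 4.3.3; lmFit, eBayes, trend = TRUE; degrees of freedom 2 residual, 9.24 prior), adjusted by Benjamini-Hochberg at 0.05. The fit was also run on data simulated from its own variance model, so that run could not test this model. Named genes were all members, Chd3, Chd4, Chd5 and up to 4 genes with the smallest p per list. The comparison of the 2 brightest probe sets of a gene was added after the values were seen. The sample titles do not say whether same-numbered arrays were prepared together, and the main fit did not pair them. Same-numbered deviations correlated at -0.0019, which shows no shared deviation but cannot settle how the arrays were prepared. The alternatives changed the normalization, the pseudocount, the filter, the variance model, a 1.2-fold null, a replicate block, probe set choice and each array left out.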

Additional observations from a re-analysis of the deposited data

How the results depend on the processing

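With 2 arrays per group, each probe set had only 2 residual degrees of freedom. The 7 higher and 3 lower member probe sets were counted again at log2(signal + 16), under quantile normalization, with a robust trend and with a replicate block, and each of these gave 7 and 3; the replicate block changed no member call, but ended that of Arid4b and brought one for Phf21a, for 7 higher and 6 lower list genes. Higher members numbered 4 of 27 under median centring (4 lower) and 3 of 28 without a filter (3 lower). They numbered 7 of 21 in the top 40% of probe sets (4 lower) and 2 of 27 in the test against 1.2-fold (2 lower). In the same order 11.5%, 6.29%, 21.6% and 3.15% of all tested probe sets were called, against 14.2% in the main fit. Without the intensity trend limma called 0 and 0 members and 0 and 0 list genes, with 9 members at an unadjusted p under 0.05, and the Chd4 probe sets kept log2 -0.83, -1.05 and -0.62 at adjusted p values of 0.132, 0.0835 and 0.197. The 8 higher and 5 lower list genes became 2 and 2 against 1.2-fold, where Chd4 1451295_a_at (-0.62) also lost its call (adjusted p = 0.132), and 6 and 3 of 45 tested with probe sets averaged, where 0 member genes were lower. Leaving out each array in turn left a single array in a group. It lowered the count of higher members, as it did over all tested probe sets. The count of lower members did not fall, and the counts of list genes did not rise. All tested probe sets gave 2017 higher and 1830 lower calls, against 0 without the trend, 519 and 332 against 1.2-fold, 1104 lower without control replicate 1 and 997 lower without control replicate 2. Values without a call whose sign changed when an array was left out ranged from -0.14 to 0.025 for Hdac1, -0.51 to 0.41 for Hdac2 1439704_at, -0.19 to 0.22 for Mbd2 1425803_a_at, -0.25 to 0.15 for Mta2, -0.25 to 0.038 for Mta3 1443350_at, -0.96 to 0.19 for Gatad2b 1432979_at, -0.52 to 0.013 for Gatad2b 1447026_at and -0.099 to 0.042 for Mier2. The change of Gatad2a minus that of Gatad2b turned from -0.035 to 0.33 with probe sets averaged. The cause of these shifts was not tested.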

Other observations

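For each member gene whose brightest probe set was called, the tested gene with the most similar pattern was taken as the one with the smallest root mean square difference of log2 signal over the 4 arrays, after each gene was centred on its mean, among 12014 genes. Mta3 lay nearest to the Rab GTPase gene Rab6b (0.011), Zmynd8 to the RNA-binding protein gene Msi1 (0.032), Hdac2 to the ribonucleoprotein gene Hnrnpr (0.0073), Mbd3 to Ubap2l (0.0097) and Gatad2a to the nuclear pore gene Nup205 (0.0076). With 4 arrays many genes share a pattern: 47 lay within 0.1 of Zmynd8, 270 of Mta3, 618 of Mbd3, 1202 of Hdac2 and 2073 of Gatad2a.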
